A study of Mus musculus with 3 samples.

Results

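The MS4A family of membrane proteins was examined in macrophages of the mouse heart, kidney and liver through 10 genes, Ms4a1, Ms4a4a, Ms4a4b, Ms4a4c, Ms4a4d, Ms4a6b, Ms4a6c, Ms4a6d, Ms4a7 and Ms4a8a, of 24453 gene symbols in the table. The genes were chosen by symbol, and the longest coding RefSeq transcript stood for each. RNA was sequenced from cells sorted by flow cytometry from C57BL/6 mice aged 8 weeks in the steady state, with 1 library of heart macrophages, 1 of kidney macrophages and 1 of liver macrophages labelled as Kupffer cells. The sort kept CD11b+ F4/80+ cells and left out cells with Ly6G or Ly6C, so that all 3 libraries share this gate. No mouse was treated and no transgene is named, and the number of mice behind a library is not given in the sources used here. With 1 library per tissue nothing could be tested across mice, so values and differences describe the libraries alone.

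MS4A proteins cross the membrane repeatedly and keep both ends in the cytoplasm. The founding member is CD20, encoded by Ms4a1, the B cell surface protein targeted by rituximab, and Ms4a2 encodes the β chain of the high-affinity IgE receptor of mast cells. In macrophages MS4A4A is known as a partner of the β-glucan receptor dectin-1, and in humans the MS4A locus is tied to the level of soluble TREM2. In the mouse the Ms4a4 and Ms4a6 subgroups each hold several similar genes.

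The 10 genes lie on mm10 chromosome 19 within a cluster of Ms4a genes that runs from 10962295 to 11640851, 678.6 kb from Ms4a10 to Ms4a3. Members resembled each other most within the Ms4a4 and Ms4a6 subgroups. The sequences below were copied from GENCODE M21 transcripts of the build GRCm38, and they are shown because a read from such a stretch may fit several members. In exon 3 the coding sequences of the Ms4a6 genes hold a stretch of 60 bases in which only the 4 positions in capitals differ among the 3 genes.

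Ms4a6b, chr19:11521671-11521730, plus strand: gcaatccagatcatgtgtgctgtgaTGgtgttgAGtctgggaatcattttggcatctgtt

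Ms4a6c, chr19:11472393-11472452, plus strand: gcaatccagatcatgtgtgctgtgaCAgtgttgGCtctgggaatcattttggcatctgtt

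Ms4a6d, chr19:11601905-11601964, minus strand: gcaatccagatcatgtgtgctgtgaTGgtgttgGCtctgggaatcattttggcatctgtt

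In exon 5, Ms4a4b and Ms4a4c share a stretch of 60 coding bases with 0 differing positions, written without capitals.

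Ms4a4b, chr19:11459161-11459220, plus strand: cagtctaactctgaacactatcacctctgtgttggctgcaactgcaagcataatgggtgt

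Ms4a4c, chr19:11419001-11419060, plus strand: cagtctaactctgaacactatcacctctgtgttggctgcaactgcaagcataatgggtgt

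Over the 45 pairs of members the identity of aligned coding bases ranged from 57.4% to 91.7%, with a median of 61.1%. Only 6 pairs were above 70%, and all lay within the Ms4a4b, Ms4a4c and Ms4a4d trio or within the Ms4a6 trio. Ms4a4b and Ms4a4c were 91.7% identical, and Ms4a6b and Ms4a6c 85.4%. In Ms4a4b 12.4% of the coding windows of 50 bases also occurred in transcripts of another gene, and in Ms4a4c 13.7%. This share was 9.63% in Ms4a6c, or 0.997% without the overlapping gene BE692007 named below. The share was 7.61% in Ms4a6b, 5.78% in Ms4a6d and 1.28% in Ms4a4d. It was 0 in Ms4a1, Ms4a4a, Ms4a7 and Ms4a8a, also with windows of 36 bases. Reads of the Ms4a4b, Ms4a4c and Ms4a4d trio and of the Ms4a6 trio may thus be partly assigned to a near copy, which limits how exactly levels within a trio can be told apart. Ms4a6c has a second source of doubt, since 59.1% of its exon bases overlap exons of BE692007, a noncoding gene on the opposite strand, and reads were counted on both strands. No other member shared exon bases with an annotated gene.

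Levels are given as RPKM, the reads of a gene per kilobase of its exons in a library scaled to 1000000 reads. Where 3 levels follow each other they belong to the heart, kidney and liver library in that order. Read counts were recovered from the RPKM, and the 95% intervals of levels are exact Poisson intervals that cover counting error only. A difference is that of log2(RPKM + 1), and a gene was called higher or lower once it reached 2 of these log2 units. The compared genes are the 11482 that reached 1 RPKM in some library, and all 10 members were among them.

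The reads recovered over all transcripts came to between 14460630 and 16743420 per library, where a read shared by several transcripts of a gene counts for each. With 1 transcript per gene they came to between 8751978 and 10373696. All 8 macrophage markers were above 1 RPKM in every library, with a summed level of 2270.0, 2046 and 2128 RPKM, led by Lyz2, Adgre1 and Cd68. The 5 Kupffer cell markers, led by Clec4f, Vsig4 and Timd4, were all found in the liver library, at a summed 1926 RPKM. In the kidney library all 5 had 0 reads. In the heart library Clec4f, Cd5l and Marco had 0 reads, while Timd4 and Vsig4 gave a sum of 189 RPKM. Monocyte markers, led by Plac8, Ccr2 and Ly6c2, summed to 265, 239 and 406 RPKM, and neutrophil markers, led by S100a8, Retnlg and S100a9, to 6.74, 0.282 and 0.065 RPKM. The monocyte sum joins markers that ran apart. Plac8 stood at 129, 5.69 and 337 RPKM, Ccr2 at 117, 227 and 54.2 and Ly6c2 at 9.74, 5.58 and 8.41. These libraries are bulk samples, in which fewer cells of a type and less RNA per cell cannot be told apart.

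Taken as a sum, the 10 genes stood at 1594 RPKM in the heart, 871 in the kidney and 1191 in the liver library. That was 0.581%, 0.304% and 0.382% of the RPKM summed over all genes. The heart library was the highest of the 3 for 6 members and the lowest for 0, while the kidney library was the lowest for 7 members and the highest for 0. The liver library was the highest for the remaining 4, Ms4a1, Ms4a4b, Ms4a4c and Ms4a8a. Ms4a6b, Ms4a6c, Ms4a6d and Ms4a7 each stood above 100 RPKM in all 3 libraries. Ms4a4a joined them above that level in the heart alone, and Ms4a8a in the liver alone.

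**Figure D1:**
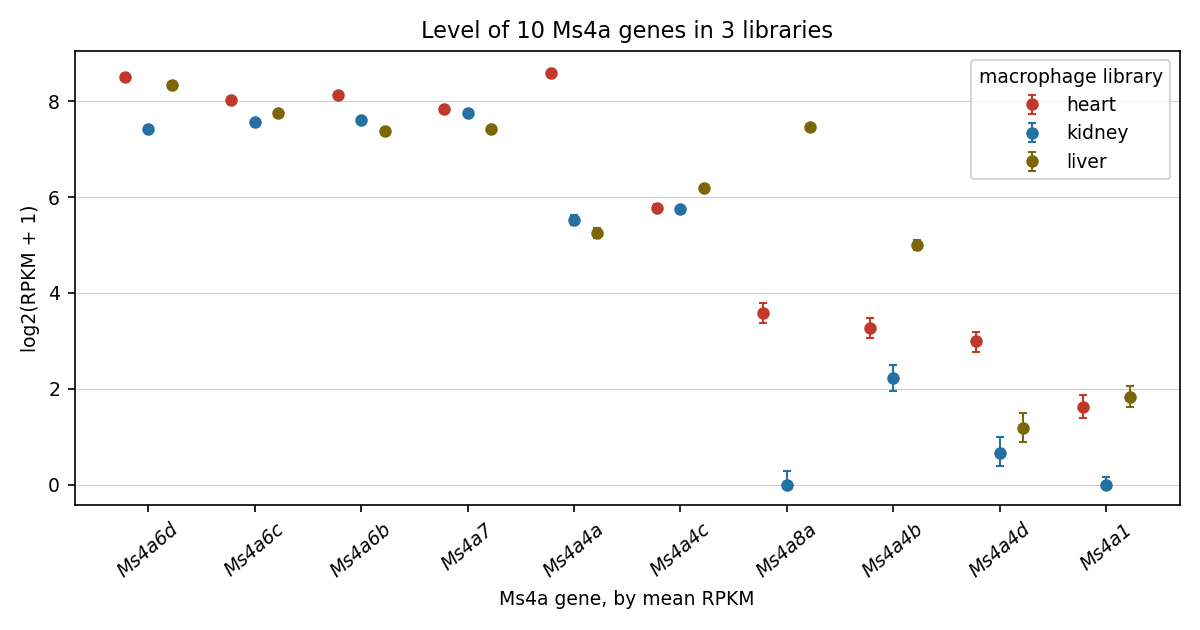
Level of each Ms4a gene in the heart, kidney and liver library, as log2(RPKM + 1), with genes ordered by mean RPKM and bars for exact 95% Poisson intervals (counting error only; bars smaller than the symbol are hidden). The 4 genes at the left are close in all libraries, while Ms4a4a stands apart in the heart at 382 RPKM and Ms4a8a in the liver at 175 RPKM.

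With the longest transcript kept for each gene, the 3 Ms4a6 genes were the most abundant members by their mean over the libraries. This order depends on that choice, since a shorter transcript of Ms4a7 stood at 277, 271 and 212 RPKM. Ms4a6d, whose protein is known in mouse macrophages as a partner of the complement receptor VSIG4, stood at 362 RPKM in the heart library (95% interval 354 to 371), 170.3 in the kidney (165 to 176) and 321 in the liver library (314 to 328). The kidney library was the low one. The ratio was 2.13 for heart over kidney (counting interval 2.04 to 2.21) and 1.13 for heart over liver (1.09 to 1.17). Kidney over liver was 0.531 (0.51 to 0.552). Among the 11482 compared genes Ms4a6d ranked 66 in the heart, 381 in the kidney and 95 in the liver library. The gene lies at 11586606 to 11604804 on the minus strand. Vsig4 itself stood at 41.5, 0 and 455 RPKM.

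Ms4a6b, at 11518559 to 11530403 on the plus strand, stood at 279.7, 195 and 165 RPKM in the heart, kidney and liver library, so the heart was the highest and the liver the lowest. Its ratio of heart over liver was 1.695 (counting interval 1.63 to 1.76), and that of heart over kidney 1.43 (1.38 to 1.48). Ms4a6c, at 11469368 to 11482196 on the same strand, stood at 258, 188 and 216 RPKM, with the kidney library lowest. Its ratio of heart over kidney was 1.37 (1.32 to 1.42) and that of heart over liver 1.19 (1.15 to 1.23). The short transcript of Ms4a6c, which ends before the exons shared with BE692007, stood at 301, 194 and 235 RPKM, in the same order of libraries as the long one. The short transcript was thus 1.17, 1.03 and 1.09 times the long one.

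The balance among the 3 Ms4a6 genes differed between libraries. Ms4a6b over Ms4a6d was 0.772 in the heart, 1.15 in the kidney and 0.514 in the liver library, and Ms4a6c over Ms4a6d was 0.711, 1.10 and 0.673. The kidney library was the one in which Ms4a6d was not the leading gene of the trio. These ratios hold only as far as reads of the trio were assigned to the right gene.

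Ms4a7, a gene known for its expression in macrophages, was the most even of the members without a near copy. Its level was 229 RPKM in the heart library (95% interval 223 to 235), 215 in the kidney (209 to 221) and 170.4 in the liver library (165 to 175), so the liver was the lowest. The ratio was 1.06 for heart over kidney (counting interval 1.02 to 1.11), 1.34 for heart over liver (1.29 to 1.40) and 1.26 for kidney over liver (1.21 to 1.32). Ms4a7 lies at 11321039 to 11334695 on the minus strand. It led the family in the kidney library and ranked 265 among all compared genes there. Its 3 coding transcripts ranged from 229 to 277 RPKM in the heart, 215 to 271 in the kidney and 170.4 to 212 in the liver library.

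In the order of levels within a library, neighbouring members were mostly separated beyond their counting intervals. These intervals leave out the choice of transcript, on which the places of Ms4a6c and Ms4a7 depend. In the heart Ms4a6c stood at 258 or 301 RPKM and Ms4a7 at 229 to 277, against 279.7 for Ms4a6b. In the liver Ms4a7 stood at 170.4 to 212 RPKM, against 175 for Ms4a8a. The orders that follow are those of the transcripts kept. In the heart the order was Ms4a4a, Ms4a6d, Ms4a6b, Ms4a6c, Ms4a7, Ms4a4c, Ms4a8a, Ms4a4b, Ms4a4d and Ms4a1, and the intervals overlapped for Ms4a8a with Ms4a4b and for Ms4a4b with Ms4a4d. In the kidney Ms4a7 came first, followed by Ms4a6b, Ms4a6c, Ms4a6d, Ms4a4c, Ms4a4a, Ms4a4b and Ms4a4d. There the intervals overlapped for Ms4a6b with Ms4a6c, and Ms4a1 and Ms4a8a shared the last place with 0 reads. In the liver Ms4a6d and Ms4a6c led, and Ms4a8a, Ms4a7 and Ms4a6b followed, with overlapping intervals between neighbours among these 3. Ms4a4c, Ms4a4a, Ms4a4b, Ms4a1 and Ms4a4d came after them.

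**Figure D2:**
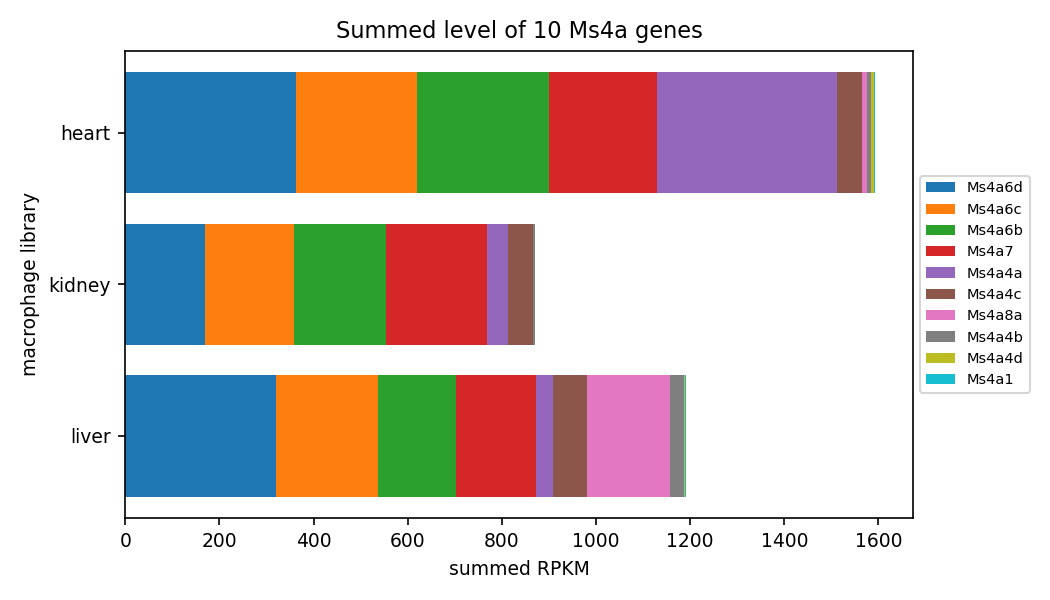
Summed RPKM of the 10 Ms4a genes in the heart, kidney and liver library, with each gene as a segment of the bar. The bars end at 1594, 871 and 1191 RPKM, and Ms4a4a takes a wide segment in the heart bar, as does Ms4a8a in the liver bar.

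Like the scarce Ms4a4d described below, Ms4a4a, which encodes the dectin-1 partner, stood far higher in the heart library than in the others. With 5457 reads it stood at 382 RPKM in the heart library (95% interval 372 to 393). With 693 reads it stood at 45.15 RPKM in the kidney library (41.9 to 48.6), and with 614 reads at 37.2 RPKM in the liver library (34.3 to 40.2). The heart value lay far above both others, which were close to each other. The ratio was 8.47 for heart over kidney (counting interval 7.82 to 9.18) and 10.3 for heart over liver (9.47 to 11.2), while kidney over liver was 1.22 (1.09 to 1.36). On the log2(RPKM + 1) scale the differences were 3.05 for heart minus kidney and 3.33 for heart minus liver. Ms4a4a was the most abundant member in the heart and ranked 45 among all compared genes there, against 1528 in the kidney and 1902 in the liver library. Ms4a4a made up 23.99% of the family's summed RPKM in the heart, 5.18% in the kidney and 3.12% in the liver. The gene lies on chromosome 19 at 11375488 to 11392915 on the plus strand. The 6 markers of dendritic cells summed to 274, 21.9 and 2.92 RPKM, and 3, 3 and 2 of them reached 1 RPKM. The heart sum was almost all Cd209a, at 270.1, 10.9 and 0 RPKM. Clec9a and Xcr1, the next most abundant by mean, stood highest in the kidney library instead, Clec9a at 0.126, 7.24 and 1.29 RPKM and Xcr1 at 1.07, 3.11 and 1.62. Zbtb46 stood highest in the heart like Cd209a, at 2.23, 0.15 and 0 RPKM with 83, 6 and 0 reads. Itgae had 0 reads in the heart, Flt3 in the kidney, and Flt3, Zbtb46, Cd209a and Itgae in the liver library. The part of dendritic cells in the level of Ms4a4a was not tested.

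Ms4a8a, known in the mouse from alternatively activated macrophages, was the member that set the liver library apart. It gave 171 reads and 11.02 RPKM in the heart library (95% interval 9.43 to 12.8). It gave 0 reads in the kidney and 3142 reads, or 175 RPKM, in the liver library (169 to 181). The 3 libraries were thus far apart, with nothing detected in the kidney and a level near that of Ms4a7 in the liver. The heart was 15.9-fold lower than the liver (counting interval 13.6 to 18.6). Taking 3 reads as the most that a count of 0 allows, the heart was at least 61.3-fold higher than the kidney and the kidney at least 973-fold lower than the liver. The exact two-sided 95% counting interval of the ratio is wider, and its lower limits were 49.3-fold and 791-fold. The upper limit of the kidney level by the exact Poisson interval was 0.221 RPKM. The differences on the log2(RPKM + 1) scale were 3.59 between heart and kidney, -3.87 between heart and liver and -7.46 between kidney and liver, each as the first tissue minus the other. Of the family's summed RPKM, Ms4a8a made up 0.692% in the heart, 0% in the kidney and 14.7% in the liver library. It lies on chromosome 19 at 11067471 to 11081103 on the minus strand, between Ms4a18 and Ms4a20. The summed Kupffer cell markers ran in the same order, at 189 RPKM in the heart, 0 in the kidney and 1926 in the liver library, and their part in the level of Ms4a8a was not tested.

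Ms4a4b, known in the mouse from T cells, where its protein associates with the receptor GITR, stood at 8.64 RPKM in the heart (156 reads), 3.71 in the kidney (72 reads) and 30.9 in the liver library (647 reads). The liver was high and the kidney low. The ratio was 2.33 for heart over kidney (counting interval 1.75 to 3.13), 0.279 for heart over liver (0.233 to 0.333) and 0.12 for kidney over liver (0.0926 to 0.153). Heart minus liver was -1.73 and kidney minus liver -2.76 on the log2(RPKM + 1) scale. The gene lies on chromosome 19 at 11443558 to 11463548 on the plus strand. Of the 12 markers of T and NK cells, 4 reached 1 RPKM in the heart library, 2 in the kidney and 5 in the liver. Their summed level was 17.8, 3.33 and 60.3 RPKM in the heart, kidney and liver library. Cd3g, a chain of the T cell receptor complex, had 0 reads in the heart and kidney and stood at 16.7 RPKM in the liver. Cd2 stood at 8.09, 0 and 18.96 RPKM and Nkg7 at 2.57, 0 and 14.9. Other markers of the list stood highest elsewhere, Il7r at 5.14, 0.281 and 1.98 RPKM, Lck at 0.705, 0.447 and 0, Cd247 at 0.198, 1.497 and 0.77 and Klrb1c at 1.03, 1.10 and 0. Of the list 5, 8 and 4 had 0 reads, with Thy1 and Ncr1 at 0 in all 3 libraries and Lck and Klrb1c at 0 in the liver. The part of T and NK cells in the level of Ms4a4b was not tested.

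Ms4a4c, the near copy of Ms4a4b, was also highest in the liver library, but its levels differed far less between libraries. It lies at 11407661 to 11427246 on the plus strand and stood at 53.9, 52.8 and 72.1 RPKM in the heart, kidney and liver library, with only the liver slightly above the others. The ratio was 1.02 for heart over kidney, with a counting interval from 0.946 to 1.10 that includes equality. It was 0.747 for heart over liver (0.697 to 0.801) and 0.732 for kidney over liver (0.684 to 0.784). Ms4a4c was 6.24 times as abundant as Ms4a4b in the heart, 14.2 times in the kidney and 2.33 times in the liver library. The contrast of the 2 genes holds only as far as their reads were assigned to the right gene.

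Ms4a4d, at 11536849 to 11558466 on the plus strand, gave 146, 13 and 31 reads. That was 6.94 RPKM in the heart library (95% interval 5.86 to 8.16), 0.575 in the kidney (0.306 to 0.982) and 1.27 in the liver (0.865 to 1.81). The heart was the highest, and both others rested on few reads. The ratio was 12.1 for heart over kidney (counting interval 6.85 to 23.2) and 5.46 for heart over liver (3.68 to 8.32). The difference was 2.33 for heart minus kidney and 1.80 for heart minus liver. Kidney over liver was 0.452, with a wide interval from 0.217 to 0.888.

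Ms4a1, which encodes CD20 and lies at 11250603 to 11266151 on the minus strand, was the least abundant member by its mean. It gave 62, 0 and 88 reads, which was 2.09 RPKM in the heart library (95% interval 1.61 to 2.68), 0 in the kidney and 2.57 in the liver (2.06 to 3.16). The heart and liver values overlapped in their intervals, and the ratio of heart over liver was 0.816 (0.58 to 1.14). Against 3 reads, as above, the heart was at least 22.2-fold higher than the kidney, and the kidney at least 27.2-fold lower than the liver. The lower limits of the exact 95% counting interval were 17.5-fold and 21.7-fold. The B cell markers did not run alike. Cd79a, a chain of the B cell receptor, stood at 0.524, 0.049 and 34.1 RPKM with 10, 1 and 754 reads. Cd79b stood at 32.9, 167.7 and 170.3 RPKM, Bank1 at 71.0, 18.6 and 150.9 and Cd22 at 1.36, 5.96 and 28.1. The list of 10 B cell markers summed to 108, 192 and 410.5 RPKM, mostly from Cd79b and Bank1, and 4, 3 and 7 of them reached 1 RPKM. Pax5 and Fcmr had 0 reads in all 3 libraries, Blk had 0 in the heart and kidney, and Fcrla had 0 in the kidney. The part of B cells in the level of Ms4a1 was not tested.

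The remaining genes of the family gave almost no reads. Of 9 others in the table, 2 of them under older symbols, 8 had 0 reads in all 3 libraries and Ms4a19 had 1 read in the kidney. The 8 include Ms4a2, the IgE receptor chain of mast cells, and Ms4a3, known from progenitors of granulocytes and monocytes. Of the 8 markers of mast cells and basophils, 6 had 0 reads in every library, Cpa3 and Fcer1a among them, and the list summed to 0.442, 2.46 and 8.16 RPKM, all of it from Hdc and Kit.

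**Figure D3:**
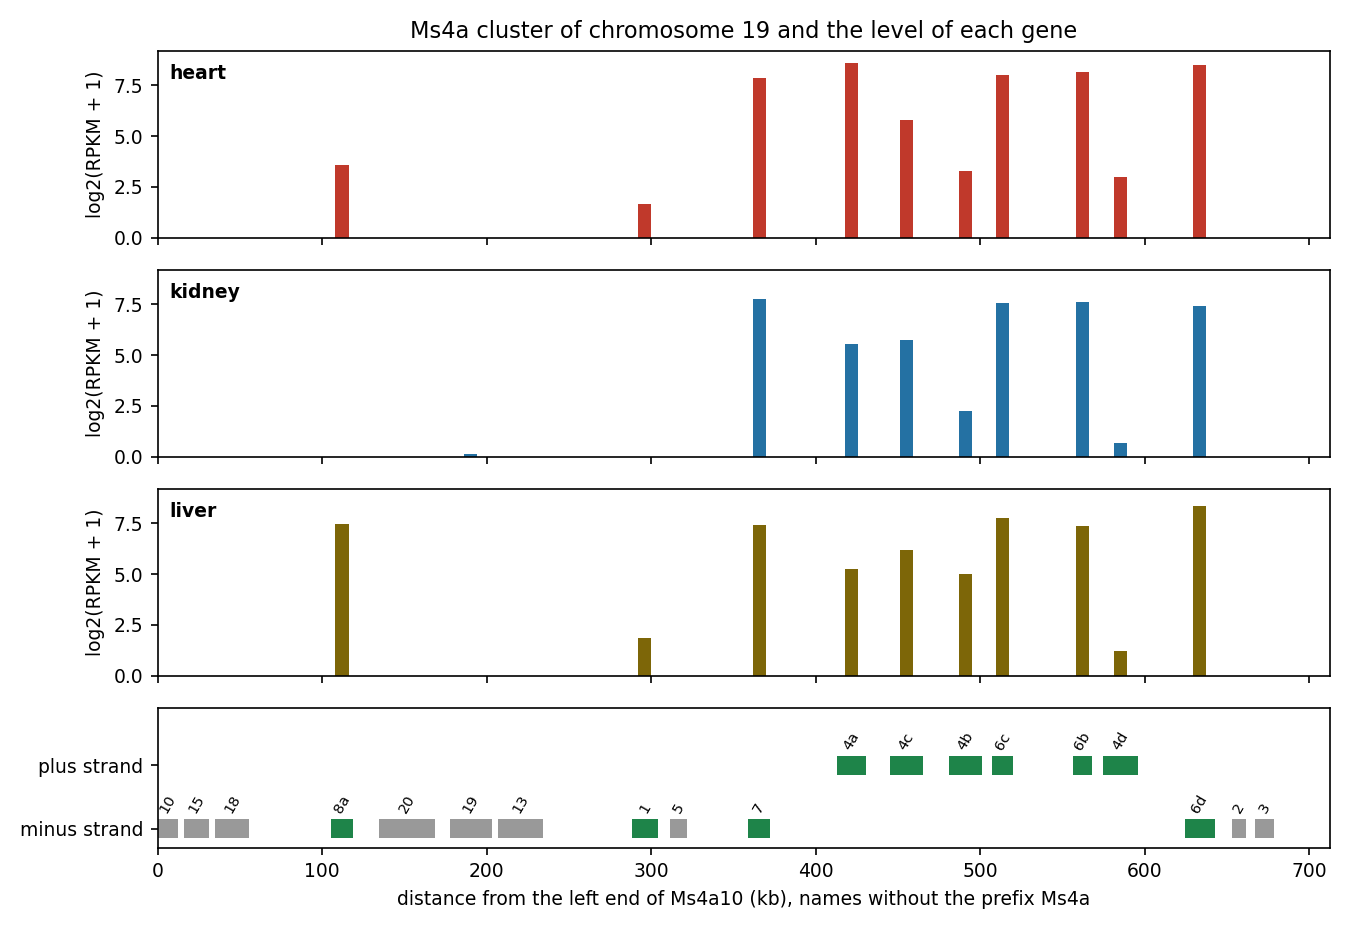
Levels of the 19 family genes of the table along the cluster, as log2(RPKM + 1) at the midpoint of each gene, in the heart, kidney and liver library, above a map of the genes by strand (green for the 10 genes described, grey for the others). From Ms4a7 to Ms4a6d every gene has reads in all libraries, while to the left of Ms4a7 the bars above 1 RPKM belong to Ms4a8a and Ms4a1.

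The members with reads in every library lay side by side. The 8 genes from Ms4a7 to Ms4a6d all had at least 13 reads in each library, and the only other family members above 1 RPKM were Ms4a1 and Ms4a8a, both at lower coordinates than that block and both with 0 reads in the kidney. Of 29 other genes within the cluster or up to 300 kb from it, 12 were among the compared genes and 11 had 0 reads in all libraries. Of these 12, 0 were called between heart and kidney or between kidney and liver, and 2, AW112010 and Ccdc86, were called lower in the comparison of heart with liver. The shares called over all compared genes were 7.5% for heart and kidney and 12.7% for kidney and liver, in either direction. For heart minus liver 7.13% were called lower, so these counts do not set the neighbouring genes apart. The 3 with the highest mean level were AW112010, a long noncoding RNA between Ms4a18 and Ms4a8a, at 64.6, 137 and 332.5 RPKM, Tmem109 at 27.5, 104 and 42.1 and Slc15a3, a peptide and histidine transporter, at 37.4, 39.4 and 59.3.

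Heart minus kidney called 3 of the 10 members higher in the heart, Ms4a4a, Ms4a4d and Ms4a8a, and 0 lower. Among all compared genes 2.4% were called higher and 5.1% lower, or 7.5% in either direction. All 10 members were above 0, against 38.9% of all compared genes. Their median difference was 1.06 log2 units, against -0.23 for all compared genes. Because of that shift of the whole distribution, a member at 0 already stands 0.23 above the typical gene.

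Heart minus liver called Ms4a4a higher and Ms4a8a lower, 1 member in each direction. Among all compared genes 5.33% were called higher and 7.13% lower, or 12.5% in either direction. These were 612 genes higher and 819 lower, a split that turned to 758 higher and 676 lower with median ratio scaling and to 1531 higher and 1266 lower with TPM scaling. Of the members, 6 were above 0 and 4 below, with a median of 0.21 against -0.16 for all compared genes. Kidney minus liver called 0 members higher and Ms4a4b and Ms4a8a lower. Among all compared genes 7.57% were called higher and 5.1% lower, or 12.7% in either direction. The members' median was -0.49 against 0.04 for all compared genes. The heart library entered 2 of these comparisons, as did each other library, so the 3 counts are not independent of each other. With 2 of 10 members called in each of the comparisons with the liver, against 12.5% and 12.7% of all compared genes, a single member would move the share by 10 percentage points.

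**Figure D4:**
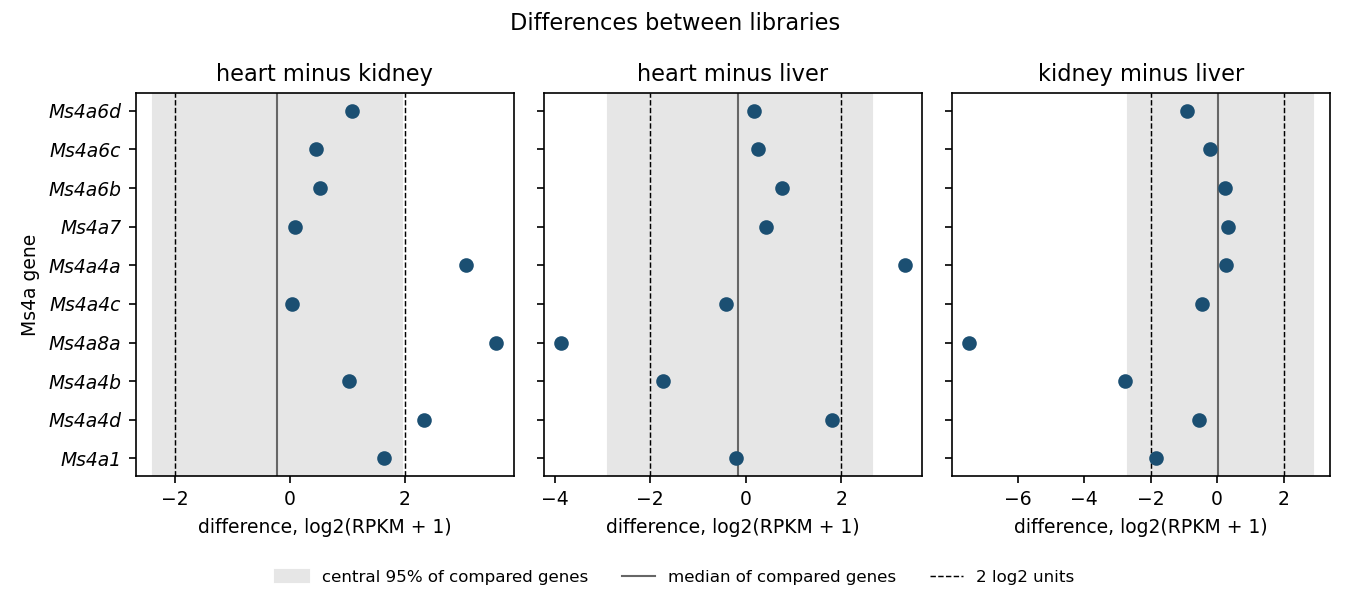
Difference of each Ms4a gene in log2(RPKM + 1) for heart minus kidney, heart minus liver and kidney minus liver; grey bands hold the central 95% of the 11482 compared genes, solid lines their median and dashed lines mark 2 log2 units. Ms4a4a lies right of the band in both comparisons of the heart, and Ms4a8a right of it for heart minus kidney and left of it in both comparisons with the liver; Ms4a4d at 2.33 lies right of it for heart minus kidney and Ms4a4b at -2.76 left of it for kidney minus liver.

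Per the file header the authors' counting allowed at most 3 tags at a position, which bears on densely covered genes. Ms4a4a, Ms4a6b, Ms4a6c, Ms4a6d, Ms4a7 and Ms4a8a, 6 of the 10, had more than 2 reads per bp of exon in at least 1 library. Among all compared genes the median absolute difference of heart and kidney was 0.56 at 1 to 2 reads per bp (750 genes) and 0.23 at 5 to 6 (112 genes). Ms4a4a reached 5.53 reads per bp in the heart and 0.702 and 0.622 in the kidney and liver. Ms4a8a reached 2.93 in the liver and 0.159 in the heart. Ms4a6b, Ms4a6c, Ms4a6d and Ms4a7 had 2.65 to 5.37 reads per bp in every library. The part of the limit on tags in the similarity of their levels was not tested, nor was its part in the ratios of Ms4a4a and Ms4a8a. The counting intervals of levels and ratios take no account of this limit.

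**Figure D5:**
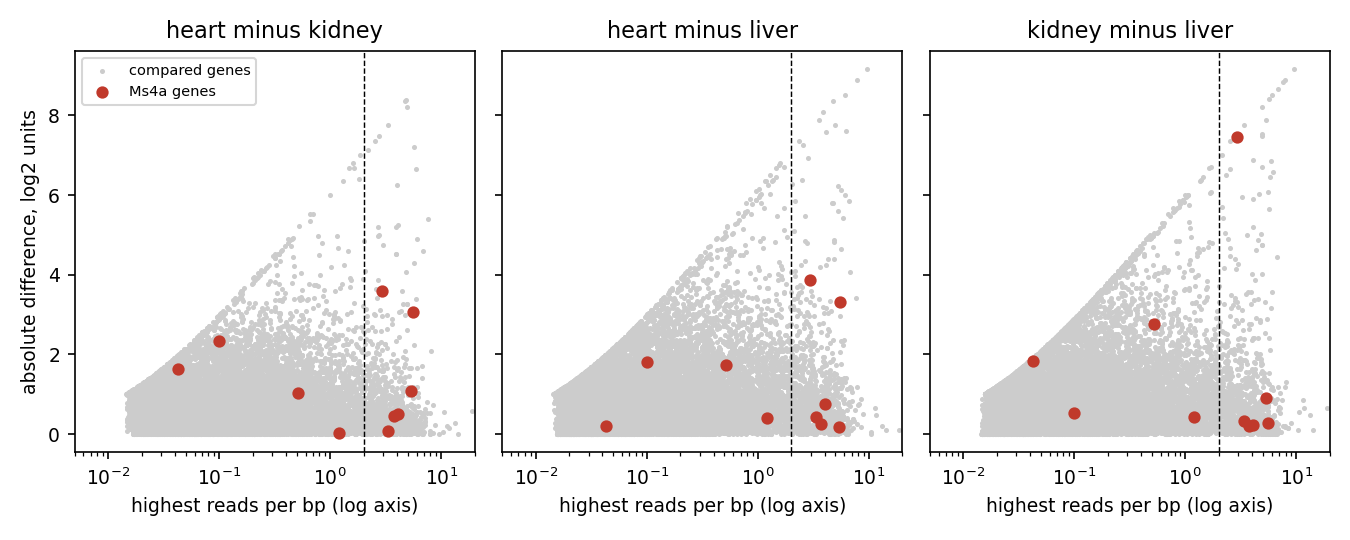
Absolute difference in log2(RPKM + 1) against the highest number of reads per bp of exon in the 3 libraries (log axis) for the compared genes (grey) and the 10 Ms4a genes (red), with a dashed line at 2 reads per bp. Of the 6 Ms4a genes right of the line, Ms4a4a and Ms4a8a show the differences of over 2 log2 units.

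Upstream sequences are shown for the 2 members with the largest differences, Ms4a4a and Ms4a8a, and for Ms4a4b and Ms4a4c, whose upstream sequences are alike while their levels differ. Each is the 250 bases before the start of the gene from RefSeq (build GRCm38.p6), written on the strand of the gene, where 8 of the 10 members were matched. Capitals mark matches to GAGGAA (the core bound by PU.1 and other ETS factors), TTGCNNAA (C/EBP), TGANTCA (AP-1) and the interferon-stimulated response element (GAAA, any 2 bases, GAAA), searched on both strands.

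Ms4a4a, chr19:11375238-11375487, plus strand: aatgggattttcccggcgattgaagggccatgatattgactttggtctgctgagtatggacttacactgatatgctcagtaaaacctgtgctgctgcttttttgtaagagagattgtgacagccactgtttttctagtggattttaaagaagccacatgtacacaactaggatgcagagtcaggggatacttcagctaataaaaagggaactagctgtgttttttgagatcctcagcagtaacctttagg

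Ms4a8a, chr19:11081104-11081353, minus strand: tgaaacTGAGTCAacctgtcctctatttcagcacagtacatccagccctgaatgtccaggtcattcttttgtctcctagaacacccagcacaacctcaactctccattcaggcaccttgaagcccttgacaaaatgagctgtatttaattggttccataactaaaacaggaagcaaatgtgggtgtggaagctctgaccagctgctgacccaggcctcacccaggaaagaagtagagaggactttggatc

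Ms4a4b, chr19:11443308-11443557, plus strand: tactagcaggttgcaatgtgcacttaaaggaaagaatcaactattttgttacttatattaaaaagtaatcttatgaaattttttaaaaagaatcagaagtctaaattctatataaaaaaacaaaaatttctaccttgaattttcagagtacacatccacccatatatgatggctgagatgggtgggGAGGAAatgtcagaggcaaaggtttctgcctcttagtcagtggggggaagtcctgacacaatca

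Ms4a4c, chr19:11407411-11407660, plus strand: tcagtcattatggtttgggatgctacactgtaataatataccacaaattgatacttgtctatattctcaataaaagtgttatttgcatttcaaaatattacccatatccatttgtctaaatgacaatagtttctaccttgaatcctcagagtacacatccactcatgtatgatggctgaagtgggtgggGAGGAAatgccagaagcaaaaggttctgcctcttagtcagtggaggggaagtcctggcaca

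GAGGAA was found in Ms4a4b at -64 to -59 and in Ms4a4c at -61 to -56 from the start, in 2 of the 8 members, and in 23.3% of all 32851 upstream sequences. TGANTCA was found upstream of Ms4a8a at -244 to -238 and of the internal start of Ms4a7, and in 6.75% of all. TTGCNNAA was found upstream of Ms4a4d alone, and in 9.56% of all. The interferon-stimulated response element was found in 0 of the 8 members and in 2.98% of all. Ms4a4a held none of these letters in this window, and no 2 of the motifs overlapped in the members. Aligned upstream bases were 78.4% identical between Ms4a4b and Ms4a4c and 85.1% between Ms4a6b and Ms4a6c. These matches describe letters and say nothing of binding.

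Receptors and signalling proteins linked to the family were taken as a list of 12 genes, of which 11 were compared. Of these, 0 were called between heart and kidney or between kidney and liver, and only Tnfrsf18 was called lower for heart minus liver, by a difference of -3.25. Of all compared genes, 7.5% were called in either direction between heart and kidney, 12.5% between heart and liver and 12.7% between kidney and liver, so counts of 0 or 1 of 11 do not set the list apart. Their median difference was -0.09 for heart minus kidney, -0.26 with the liver subtracted from the heart and -0.09 with it subtracted from the kidney. Clec7a, which encodes dectin-1, stood at 316, 298 and 304 RPKM, nearly level while Ms4a4a was not, although at up to 5.09 reads per bp. Syk, the kinase below dectin-1, stood at 30.8, 40.6 and 54.2 RPKM, and Trem2, a lipid receptor of myeloid cells, at 18.9, 20.2 and 52.02. Tnfrsf18, which encodes GITR, the receptor that Ms4a4b associates with, stood at 0.207, 2.38 and 10.5 RPKM, highest in the liver library like Ms4a4b. Fcer1g, the signalling chain shared by Fc receptors, stood at 396, 364 and 387 RPKM, and Fcer1a, the IgE-binding chain, had 0 reads in all 3 libraries. The related tetraspan genes Tmem176a and Tmem176b, both on chromosome 6, had no call in any comparison. Tmem176a stood at 206, 345 and 290.2 RPKM, and Tmem176b at 281, 297 and 271.

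Levels were compared with those of Ms4a6d, Ms4a6c and Ms4a6b, the 3 most abundant members by the transcripts kept. The genes most like each were found by the largest absolute difference in log2(RPKM + 1) over the 3 libraries. Cd300ld, a myeloid receptor, was the nearest to Ms4a6d with a largest difference of 0.24, followed by Scpep1 and Litaf at 0.27 and 0.31. Nfe2l2, which encodes the stress response factor NRF2, was the nearest to Ms4a6c at 0.12, followed by Ghitm at 0.13. Ccrl2, a receptor that binds chemerin, was the nearest to Ms4a6b at 0.13, followed by Eif3e and Mbnl1 at 0.18 and 0.21. With 3 libraries many genes can lie this close, and likeness here describes levels alone.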

How the data were processed

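The deposited values are RPKM, made by the authors for 34711 RefSeq transcripts, with mm10 from the submitters' processing notes. Per the file headers HOMER's analyzeRepeats.pl made them from reads in exons of either strand, scaled to 1000000 per library and limited to 3 tags at a position. CASAVA and STAR stand in the submitters' processing notes without versions. Per the labels' protocols, RNA was amplified with a kit for low input. RPKM times exon length came in steps of 1 read, which gave the reads. Of the values of up to 500 reads, 14098 in the heart, 12820 in the kidney and 10756 in the liver library were checked. All of these were within 0.1 of a whole number of reads. The check left out short transcripts and those so long that the rounding of RPKM blurs single reads. The recovery was also tested on simulated data. The kept transcripts, 1 per gene, held 8751978 reads in the heart, 9485368 in the kidney and 10373696 in the liver library. Genes that reached 1 RPKM in any library were compared on log2(RPKM + 1). Ratios are of RPKM without a pseudocount, with exact 95% Clopper-Pearson intervals based on the reads of both libraries. A fold against 0 reads is a lower bound, taken against 3 reads in that library. PCR copies could not be separated from molecules, so intervals cover counting error only. Coding sequences were aligned globally with Biopython 1.88, and the rest was computed with pandas 2.3.3 and scipy 1.17.1 in Python 3.11.15.

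The members and lists were chosen with earlier results of these data known. Named were all family genes, Tmem176a, Tmem176b, the 12 linked receptors and signalling proteins, the 3 neighbouring genes and the 3 markers of each list with the highest mean, and the 3 genes closest to each of the 3 most abundant members. Some genes that this rule or the lists chose are not reported here. Other markers and Ccdc86 were named after their values were seen. Alternatives were the pseudocount, the scaling, the filter on low values, the transcript kept and leaving out densely covered genes. Protein sequences were planned but not used here, and coding sequences took their place.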

Additional observations from a re-analysis of the deposited data

How the results depend on the processing

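With 8 alternative settings the sign of all 30 differences, 10 members in 3 comparisons, stayed as reported wherever the member remained in the comparison. Most of this was fixed in advance, since neither a pseudocount nor a filter can turn a sign. The transcript kept could turn a sign only for Ms4a6c and Ms4a7. For the other members only TPM scaling and median ratio scaling could do so. Ms4a1 drops out with a minimum of 5 RPKM, and the 6 densely covered members drop out when genes of more than 2 reads per bp are left out. In that last setting, which removes Ms4a4a and Ms4a8a by construction, 1 member was called higher for heart minus kidney, 0 were called higher and 0 lower for heart minus liver, and 1 was called lower for kidney minus liver. These counts are of the 4 members left, and the same calls over the 10540 genes left came to 224, 553, 748 and 519. With a pseudocount of 5 only 1 member, Ms4a4a, was called higher for heart minus kidney, while the calls over all compared genes came to 108, against 275 as reported. For heart minus liver 2 were called higher with a pseudocount of 0.1 and also with TPM scaling, Ms4a4d joining Ms4a4a. The calls over all compared genes grew as well, to 1582 of 11482 with a pseudocount of 0.1 and 1531 of 13244 with TPM scaling, against 612 as reported. In both settings Ms4a1 made 4 members higher for heart minus kidney and 3 lower for kidney minus liver. Higher calls over all compared genes for heart minus kidney came to 751 (pseudocount 0.1) and 685 (TPM scaling), against 275 as reported. Lower calls over all compared genes for kidney minus liver came to 1155 and 932 in the same order, against 586 as reported. Ms4a4a ranged from 2.95 to 3.26 log2 units for heart minus kidney and from 3.20 to 3.57 for heart minus liver, and Ms4a8a from -3.98 to -3.49 for heart minus liver. Ms4a8a ranged from 1.68 to 6.80 for heart minus kidney and from -10.77 to -5.17 for kidney minus liver, since it had 0 reads in the kidney. Ms4a1, also with 0 reads there, ranged from 0.50 to 4.46 and from -4.74 to -0.60 in the same comparisons. The median of all compared genes for heart minus liver, -0.16 as reported, was 0.00 with TPM scaling, with median ratio scaling and with no filter, and -0.25 with a minimum of 5 RPKM. TPM scaling also changed which genes were compared, so its effect is not that of the scaling alone. It gave a median of 0.17 for kidney minus liver. No paired analysis was possible because each tissue has 1 library. Depth limits Ms4a1 and Ms4a4d, which rest on at most 146 reads in any library.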
